A study of Mus musculus with 20 samples.

Results

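The regions described here are the binding sites of Bcl11b and Foxp3 at 8 integrin genes of T cells: Itga4, Itgae, Itgal and Itgav, which encode alpha subunits, and Itgb1, Itgb2, Itgb7 and Itgb8, which encode beta subunits. A region belongs to a gene when its centre lies nearest to that gene among 21887 protein-coding genes, at distance 0 inside the gene and at most 100 kb away. By this rule the 8 genes hold 30 of the 22081 distinct regions of the series, and all 8 hold at least 2. Of all protein-coding genes, 50.3% hold a region.

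Bcl11b, a zinc-finger protein, controls transcription throughout the T lineage, and Foxp3 is the master regulator of regulatory T cells (Treg). Chromatin immunoprecipitation and sequencing mapped Foxp3 in Bcl11b-KO Treg cells (genotype Bcl11b f/f with Foxp3-IRES-YFP-Cre, 2 libraries) and Bcl11b in KIKO cells (genotype Foxp3-GFPKO, labelled as Treg cells without Foxp3, 2 libraries). It also mapped Bcl11b in wild-type (WT) Treg cells (3 libraries), Foxp3 in WT Treg cells (2 libraries) and Bcl11b in WT cells labelled Tn (3 libraries). Both WT groups carry Foxp3-IRES-YFP-Cre. A further 8 libraries are input DNA, which makes 20 samples in 9 groups. All mice are C57BL/6, and the cells were sorted from lymph nodes and spleen, as CD4+GFP+ for KIKO and as CD4+YFP+ for the other groups. The Tn label is not expanded, and Tn cells have the same sort markers as Treg cells. The Cre recombinase sits in the Foxp3 gene, so the deletion of Bcl11b depends on Foxp3 being turned on. The KIKO cells differ from the WT cells in reporter as well as in Foxp3. The sources used here do not give the age or sex of the mice or the number of animals per library.

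The deposited data are 12 lists of positions in mm10, 3 for each of 4 pairwise comparisons. Each comparison sorts regions into a class specific to one set, a class specific to the other set, and a common class. In the plots, lost stands for WT-specific. The lists carry no score, read count or value per replicate, so the depth behind a call is unknown and no test between conditions could be run. Shares have Wilson 95% intervals, which cover counting error only, and regions of 1 gene are not independent of each other. Because the lists hold no expression, the labelled cell types could be set only against binding at marker genes. WT Treg Foxp3 regions stood at all 4 Treg markers, all 4 T cell markers, 2 of 5 CD8 and NK markers, 1 of 3 B cell markers and 0 of 4 myeloid markers. WT Treg Bcl11b regions stood at 3 of 4 Treg markers, 3 of 4 T cell markers and none of the others. The Tn, KIKO and Bcl11b-KO sets were not counted in this way, nor was the share of all genes with such regions. A region of any list stood at 50.3% of all protein-coding genes, so these few markers do not test the cell labels.

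Integrins are adhesion receptors made of an alpha and a beta chain. The chain that each alpha subunit pairs with sets its ligand and the tissue a T cell can enter or stay in. Alpha-L with beta-2 forms LFA-1, which binds ICAM molecules on other cells. Alpha-4 pairs with beta-1 to bind VCAM1 and with beta-7 to bind MAdCAM on gut vessels. Alpha-E, known as CD103, pairs with beta-7 and binds E-cadherin of epithelial cells. Alpha-V with beta-8 releases active TGF-beta from its latent form, a step for which Treg cells are known.

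Promoter sequences of 5 of the 8 genes, Itga4, Itgav, Itgb1, Itgb7 and Itgb8, were in the RefSeq table (GRCm38.p6, whose coordinates equal those of mm10). A region lay over 4 of these 5 promoter windows. In the whole table, 31.8% of 17492 protein-coding genes had a region over a promoter window. That share counts the whole windows of the table, which run past the 250 bases before the start site used for the 5 genes. The 250 bases before the start site of these 4 genes are shown because the regions over them fell into different classes of the comparisons described below. Capitals mark matches, on either strand, to the forkhead letters TGTTTA, the ETS letters GGAAG, the RUNX letters TGTGGT and the BCL11 letters TGACCA. No match overlapped another.
Itga4 (chr2:79255176-79255425, plus strand): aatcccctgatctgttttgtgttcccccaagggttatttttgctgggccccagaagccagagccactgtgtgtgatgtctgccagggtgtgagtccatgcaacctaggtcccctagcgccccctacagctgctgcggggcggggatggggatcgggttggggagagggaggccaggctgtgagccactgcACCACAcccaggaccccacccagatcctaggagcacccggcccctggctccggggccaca
Itgav (chr2:83724147-83724396, plus strand): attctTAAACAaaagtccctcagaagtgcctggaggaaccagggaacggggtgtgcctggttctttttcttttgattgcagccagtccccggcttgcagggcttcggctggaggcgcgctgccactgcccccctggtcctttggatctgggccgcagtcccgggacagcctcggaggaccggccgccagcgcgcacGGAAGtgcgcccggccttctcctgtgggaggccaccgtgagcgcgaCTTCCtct
Itgb1 (chr8:128685404-128685653, plus strand): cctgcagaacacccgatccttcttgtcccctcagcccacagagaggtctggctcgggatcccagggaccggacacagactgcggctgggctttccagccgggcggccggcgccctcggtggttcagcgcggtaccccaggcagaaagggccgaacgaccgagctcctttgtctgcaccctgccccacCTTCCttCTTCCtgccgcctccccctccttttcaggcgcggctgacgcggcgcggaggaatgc
Itgb7 (chr15:102231936-102232185, minus strand): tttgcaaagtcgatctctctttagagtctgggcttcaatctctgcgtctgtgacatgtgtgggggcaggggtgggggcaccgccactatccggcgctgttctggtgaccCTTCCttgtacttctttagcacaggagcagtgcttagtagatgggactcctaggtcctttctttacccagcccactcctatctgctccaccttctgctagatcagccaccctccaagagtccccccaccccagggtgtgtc

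The Itga4 window held 1 RUNX match and no ETS match. Itgav held 1 forkhead and 2 ETS matches, Itgb1 held 2 ETS matches, and Itgb7 held 1 ETS match. The Itgb7 region covered only the 108 bases next to the start site, and the ETS match, 141 bp before that site, lay outside it. All other marked matches lay under a region. Of all 32851 windows of 250 bases, 64.1% held the ETS letters, 14% the RUNX letters, 12% the forkhead letters and 11.4% the BCL11 letters. These matches describe the letters of the windows and do not place a factor there.

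Of the 30 regions, 26 were listed for Foxp3 (86.7%) and 14 for Bcl11b (46.7%) in at least 1 list, and over all regions 82.6% and 42.2% were. Foxp3 alone was listed at 16 (53.3%) and Bcl11b alone at 4 (13.3%), and over all regions at 57.8% and 17.4%. Both factors were listed at 10 (33.3%, 19.2 to 51.2), and at 24.8% of all regions. Inside the gene lay 21 of the 30 regions (70.0%, 52.1 to 83.3), and 61.0% of all regions given to a gene. Within 1 kb of an end of their own gene lay 7 regions, at 6 genes, where 37.5% of all regions given to a gene lay that close. All of these 7 were Foxp3 regions, and 2 of them, at Itga4 and Itgb2, were also Bcl11b regions. The shares of Foxp3 and Bcl11b regions among all regions that close to a gene end were not counted. An end here is an outer end of the annotated gene, and the start sites of Itgav and Itgb7 lie further inside. Their promoter regions, 1.97 kb and 1.47 kb from an end, are therefore not among the 7. The Itgav one is a region of both factors.

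**Figure D1:**
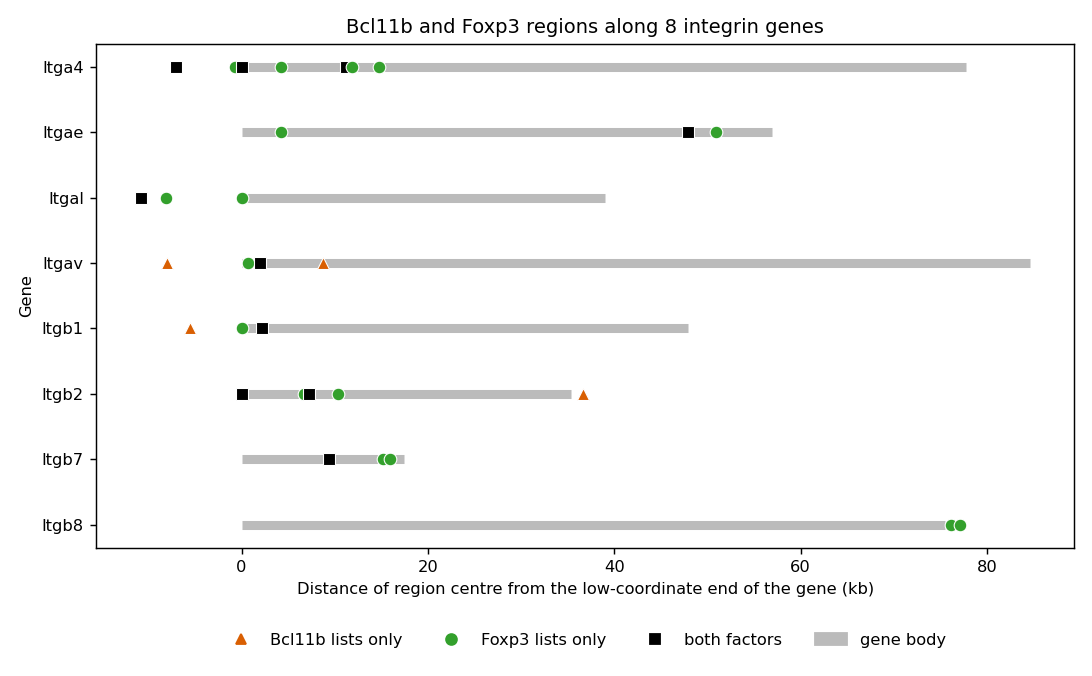
Positions of the 30 regions along the 8 genes. The x axis is the distance of a region's centre from the low-coordinate end of its gene in kb, and grey bars are gene bodies. Triangles are regions in Bcl11b lists only, circles in Foxp3 lists only and squares in lists of both factors. Of the Itga4 regions, 5 lie in the first 14.8 kb of a gene of 77.7 kb, and both regions of Itgb8 lie beyond the end of the gene body.

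Itga4, at chr2:79255426-79333114, held the most regions of the 8 genes, 7, all within 22 kb. Only 221 protein-coding genes (1.01%) held 7 or more. The region over the start site, chr2:79255204-79255648, was 445 bp wide, the widest of the 30, and was centred on the start site. It was common in all 4 comparisons, so it was listed for Bcl11b in Treg, KIKO and Tn cells and for Foxp3 in Bcl11b-KO and WT Treg cells. It covered 222 of the 250 promoter bases shown above. The other 6 Itga4 regions were listed only in comparisons that involve Foxp3.

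Of those 6, the KO-specific one was chr2:79267223-79267498, 11.9 kb after the start site. The region at chr2:79266508-79266788, 11.2 kb after the start site, was common to Bcl11b-KO and WT cells and common to Bcl11b and Foxp3. The 4 regions specific to WT Foxp3 were centred 7.0 kb and 0.666 kb before the start site and 4.19 kb and 14.8 kb after it. Among these 4, only the one 7.0 kb before the start site, chr2:79248312-79248531, was also common to Bcl11b and Foxp3. Sites without a counterpart in the Bcl11b-KO list thus stood on both sides of a promoter region that was common throughout.

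Itgae, at chr11:73090505-73147449, held 3 regions, all inside the gene. One, chr11:73138234-73138509, was common in all 4 comparisons. The other 2, chr11:73094593-73094868 and chr11:73141279-73141554, were KO-specific Foxp3 regions and were listed in no other comparison. No Itgae region was specific to WT Foxp3, and none was Foxp3-only or Bcl11b-only in WT Treg cells.

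Itgal, at chr7:127296139-127335137, had 3 regions that were all common to Foxp3 of Bcl11b-KO and WT Treg cells. The region 10.8 kb outside the gene, chr7:127285127-127285459, was also common in the 3 other comparisons. The region 8.06 kb outside, chr7:127287942-127288217, and the one over the gene end, chr7:127295975-127296357, were Foxp3-only. Bcl11b was therefore listed away from the Itgal gene body, at the most distant of its 3 regions.

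Itgav, at chr2:83722303-83806917, was the only gene of the 8 with a Bcl11b-only region and the only one with a Tn-specific region. Its promoter region, chr2:83724102-83724435, covered all 250 bases shown above. That region was common to Treg and Tn cells, WT-specific against KIKO cells, common to Bcl11b and Foxp3, and common to Bcl11b-KO and WT Foxp3. The Bcl11b-only region, chr2:83730966-83731163, lay 6.67 kb after the start site and was likewise common with Tn cells and WT-specific against KIKO cells. The Tn-specific region, chr2:83714228-83714453, lay 10.1 kb before the start site. A Foxp3-only region, chr2:83722875-83723163, stood 1.38 kb before that start site and was common to Bcl11b-KO and WT cells. It lay inside the annotated gene, 0.716 kb from its end.

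Itgb1, at chr8:128685654-128733579, had 3 regions. Its promoter region, chr8:128685516-128685806, was Foxp3-only in WT Treg cells and common to Bcl11b-KO and WT Foxp3. It covered 138 of the 250 bases shown above. Bcl11b was listed 2.19 kb after the start site, at chr8:128687741-128687938, in a region common to Treg and Tn cells and WT-specific against KIKO cells. That region was also common to Bcl11b and Foxp3, yet the comparison of Bcl11b-KO and WT Foxp3 does not list it. A further Bcl11b region, chr8:128680045-128680270, lay 5.5 kb before the start site and appeared only in the comparison of Treg and Tn cells, as common.

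Itgb2, at chr10:77530329-77565708, encodes the beta chain of LFA-1 and had 5 regions. Only 3.31% of protein-coding genes had 5 or more. At the gene end, chr10:77530231-77530511 was common to Bcl11b and Foxp3 in WT Treg cells and specific to WT Foxp3 against Bcl11b-KO. The KO-specific region, chr10:77540573-77540848, lay inside the gene, 10.4 kb from that end. Between them, chr10:77536896-77537171 and chr10:77537462-77537681 were common to Bcl11b-KO and WT Foxp3. Of these, chr10:77537462-77537681 was also common to Bcl11b and Foxp3 in WT Treg cells, and chr10:77536896-77537171 was not listed in that comparison. The last Itgb2 region, chr10:77566793-77567044, lay 1.21 kb beyond the opposite end and was listed only as common to KIKO and WT Bcl11b.

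Itgb7, at chr15:102215994-102233405, is the shortest of the 8 genes, at 17.4 kb, and held 3 regions. The region over the promoter, chr15:102231824-102232043, was centred 2 bp from the start site, was Foxp3-only, and was specific to WT Foxp3 against Bcl11b-KO. The KO-specific region, chr15:102231030-102231305, lay 0.767 kb after the same start site. The third, chr15:102225176-102225490, lay 6.6 kb after it and was common to Treg and Tn Bcl11b, WT-specific against KIKO, common to Bcl11b and Foxp3, and common to Bcl11b-KO and WT Foxp3. Itgb7 thus had 1 KO-specific, 1 common and 1 WT-specific Foxp3 region within 6.87 kb.

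Itgb8, at chr12:119162803-119238276, encodes the beta chain that pairs with alpha-V to activate TGF-beta. It had 2 regions, 0.599 kb and 1.64 kb before its start site, at chr12:119238765-119238984 and chr12:119239809-119240028. Both were Foxp3-only in WT Treg cells and common to Bcl11b-KO and WT Foxp3. Itgb8 was the only one of the 8 genes with no region in any Bcl11b list.

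**Figure D2:**
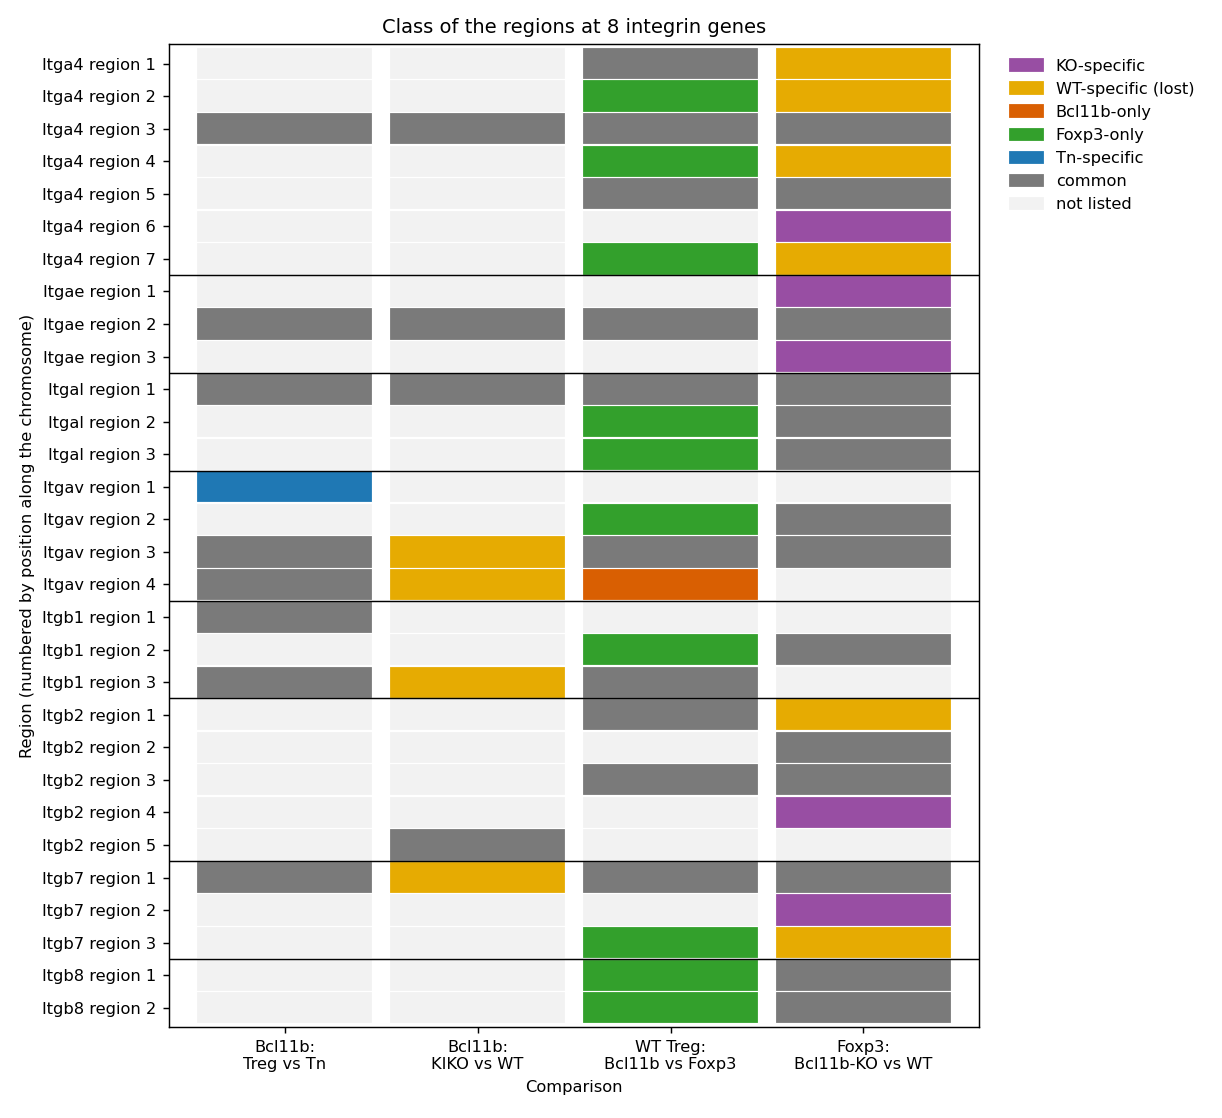
Class of each of the 30 regions (rows, numbered by position within a gene) in the 4 comparisons (columns). Purple is KO-specific, yellow WT-specific, orange Bcl11b-only, green Foxp3-only, blue Tn-specific, dark grey common and light grey not listed. The rows of Itga4 region 3, Itgae region 2 and Itgal region 1 are dark grey in all 4 columns.

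Regions in all 5 sets, that is Bcl11b in Treg, KIKO and Tn cells and Foxp3 in Bcl11b-KO and WT Treg cells, numbered 3. They stood at Itga4, Itgae and Itgal, 1 each. They are 10% of the 30 regions (3.46 to 25.6), and 3.79% of all regions were in all 5 sets, a share inside that interval. The comparisons share the WT Treg libraries, so this overlap is given as a description.

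The comparison of Bcl11b in Treg and Tn cells asks which of its sites belong to Treg cells. None of the 8 Treg-side regions at integrin genes was Treg-specific, and all 8 were common. A count of 0 of 8 allows a share of up to 37.5%, and 31.1% of all Treg-side regions were Treg-specific and 68.9% common, so a lower share at these genes was not detectable at this number. On the Tn side, 1 of 9 regions was Tn-specific (11.1%, 1.99 to 43.5), as were 13.9% of all Tn-side regions. The 8 common regions lay at Itgav and Itgb1, with 2 each, and at Itga4, Itgae, Itgal and Itgb7, with 1 each.

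The comparison of Bcl11b in KIKO and WT Treg cells asks which sites are listed without Foxp3. At integrin genes 0 regions were KIKO-specific, 4 were common and 4 were WT-specific. WT-specific were 50.0% of the 8 WT-side regions (21.5 to 78.5), and 62.3% of all WT-side regions, the other 37.7% being common. Itga4, Itgae, Itgal and Itgb2 had 1 common region each and no WT-specific one, whereas Itgav had 2 WT-specific regions and Itgb1 and Itgb7 had 1 each, with none common. KIKO-specific regions are rare in the series, at 3.05% of all KIKO-side regions, and 0 of 4 allows a share of up to 75.0%.

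In WT Treg cells the comparison of Bcl11b with Foxp3 asks how far the sites of the 2 factors coincide. Of 11 Bcl11b regions at integrin genes, 10 were common with Foxp3 (90.9%, 62.3 to 98.4), and 65.5% of all Bcl11b regions were. Of the 20 Foxp3 regions, 10 were common with Bcl11b (50.0%, 29.9 to 70.1), and 33.2% of all Foxp3 regions were. Both intervals include the share over all regions. Itga4 had 3 common and 3 Foxp3-only regions and Itgb2 had 2 common and no other, while Itgb8 had 2 Foxp3-only regions and no common one.

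The comparison of Foxp3 in Bcl11b-KO and WT Treg cells asks how Foxp3 sites are listed without Bcl11b. At integrin genes 5 regions were KO-specific, 14 common and 6 WT-specific. KO-specific were 26.3% (11.8 to 48.8) of the 19 KO-side regions, and 17.9% of all KO-side regions. WT-specific were 30.0% (14.5 to 51.9) of the 20 WT-side regions, and 31.3% of all WT-side regions. Itga4 alone held 4 of the 6 WT-specific regions, and without Itga4 the share was 14.3%, 2 of 14. Itgae held 2 of the 5 KO-specific regions, and without it 3 were left.

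None of the 5 KO-specific regions appeared on the Foxp3 side of the comparison of both factors in WT Treg cells. Both comparisons share the WT Foxp3 libraries, and KO-specific means specific against WT Foxp3. The class itself therefore bears on this absence but does not fix it. At the further gene lists described below, most KO-specific regions were likewise not listed in that comparison. However, chr11:104622644-104622919 at Itgb3 was Foxp3-only there, and a KO-specific region at each of Rap1b and Ptk2b was common to Bcl11b and Foxp3. The same share over all KO-specific regions was not computed.

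**Figure D3:**
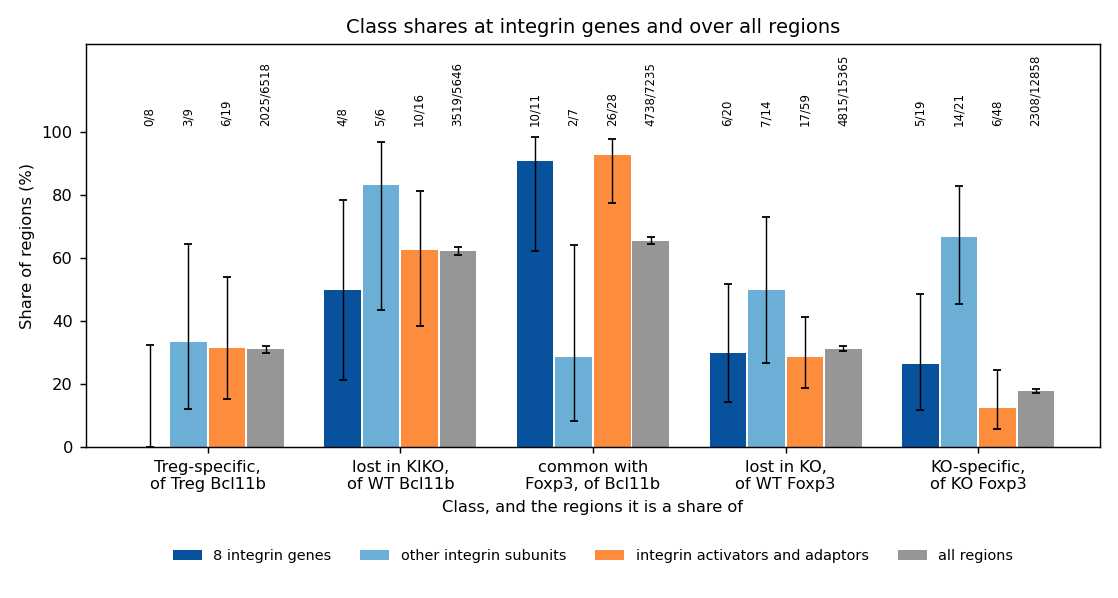
Share of regions in a class (y axis, %), for the 8 integrin genes, 18 other integrin subunit genes, 20 genes of integrin activators and adaptors, and all regions. Error bars are Wilson 95% intervals, and the fractions above the bars give regions in the class over regions on that side. For the 8 integrin genes each interval includes the share over all regions, while 14 of 21 KO-side regions at the other subunit genes were KO-specific.

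Set side by side as receptors, the partner chains had the following Foxp3 regions in the comparison of Bcl11b-KO and WT cells. For alpha-L with beta-2, Itgal had 0 KO-specific, 3 common and 0 WT-specific Foxp3 regions, and Itgb2 had 1, 2 and 1. For alpha-4 with beta-7, Itga4 had 1 KO-specific, 2 common and 4 WT-specific regions, and Itgb7 had 1, 1 and 1. Itgb1, the other partner of alpha-4, had 0 KO-specific, 1 common and 0 WT-specific regions. For alpha-E with beta-7, Itgae had 2 KO-specific, 1 common and 0 WT-specific regions. For alpha-V with beta-8, both genes had 2 common Foxp3 regions and neither a KO-specific nor a WT-specific one, but Bcl11b was listed at Itgav only.

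Width bears on how a class can be read. Each set has a modal width, 276 bp for Bcl11b-KO Foxp3, 220 bp for WT Foxp3, 252 bp for KIKO, 226 bp for Tn and 198 bp for Treg Bcl11b. All 5 KO-specific integrin regions were 276 bp wide, as were 85.9% of all KO-specific regions. Of the 6 WT-specific Foxp3 regions 5 were 220 bp wide (83.3%), as were 67.9% of all WT-specific ones. Of the 30 regions, 21 (70.0%) had one of these 5 widths, as had 69.7% of all regions. Of the 14 regions common to Bcl11b-KO and WT Foxp3, 8 (57.1%) were wider than all 5 modal widths, as were 44.6% of all such regions. Some other common regions had the exact width of a single set. Both Itgb8 regions, common to Bcl11b-KO and WT Foxp3, were 220 bp wide. Among regions common to Bcl11b and Foxp3, chr2:79248312-79248531 at Itga4 and chr10:77537462-77537681 at Itgb2 were 220 bp wide, and chr8:128687741-128687938 at Itgb1 was 198 bp wide. Itgae region chr11:73138234-73138509, common in all 4 comparisons, was 276 bp wide, the Itgb2 region common to KIKO and WT was 252 bp wide, and the Itgb1 region common to Treg and Tn at chr8:128680045-128680270 was 226 bp wide. The sources used here do not state the rule that makes a region common, and whether such regions were called in both sets was not tested.

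The lists were also not uniform in what they place in WT Treg cells. WT Treg Bcl11b enters 3 comparisons, and 7 of the 13 integrin regions that any of them lists for it were in all 3 (53.8%), as were 60.3% over all regions. These 7 were at Itgav, with 2, and at Itga4, Itgae, Itgal, Itgb1 and Itgb7, with 1 each. A further 4 were listed for it only beside Foxp3, and they lay at Itga4 and Itgb2, 2 each (30.8%, 12.7 to 57.6, with 20.7% over all regions). WT Treg Foxp3 enters 2 comparisons, and 19 of 21 integrin regions were in both (90.5%), as were 82.5% over all regions. The other 2 were chr8:128687741-128687938 at Itgb1 and chr10:77536896-77537171 at Itgb2.

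Other integrin subunit genes give a setting for these counts. Of 18 such genes, 13 held 35 regions. On the KO side, 14 of their 21 Foxp3 regions were KO-specific (66.7%, 45.4 to 82.8), against 17.9% over all regions. Itgb3, which encodes the beta chain of a vitronectin receptor, had 4 KO-specific and 2 common Foxp3 regions, 1 of the KO-specific ones being Foxp3-only in WT Treg cells. Itga6, a laminin receptor chain, had 2 common and 3 WT-specific regions. Itgad had 3 KO-specific and 1 common, and Itga1, a collagen receptor chain, had 1 of each. Itga8 had 3 Bcl11b-only regions and no Foxp3 region. Of the 7 Bcl11b regions at these genes in WT Treg cells, 2 were common with Foxp3 (28.6%, 8.22 to 64.1), against 65.5% over all regions.

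Itgad lies beside Itgam and Itgax, which encode alpha chains of myeloid integrins and were named after their values were seen. Together the 3 genes held 9 Foxp3 regions between 128050829 and 128195271 of chromosome 7, of which 8 were KO-specific and 1 was common. All 9 were 276 bp wide, and none was in a Bcl11b list. Without these 3 genes, 6 of 12 KO-side regions at the other subunit genes were KO-specific (50.0%, 25.4 to 74.6). Of the 4 myeloid markers (Lyz2, Csf1r, Itgam and Cd14), only Itgam held a region in any list, with 3. These 3 lay 3.34 kb, 3.88 kb and 11.7 kb outside Itgam, and both Itgax regions also lay outside their gene. Of the 4 Itgad regions, 3 lay inside the gene. The part that another cell type in the sorted Bcl11b-KO cells may have in these counts was not tested.

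**Figure D4:**
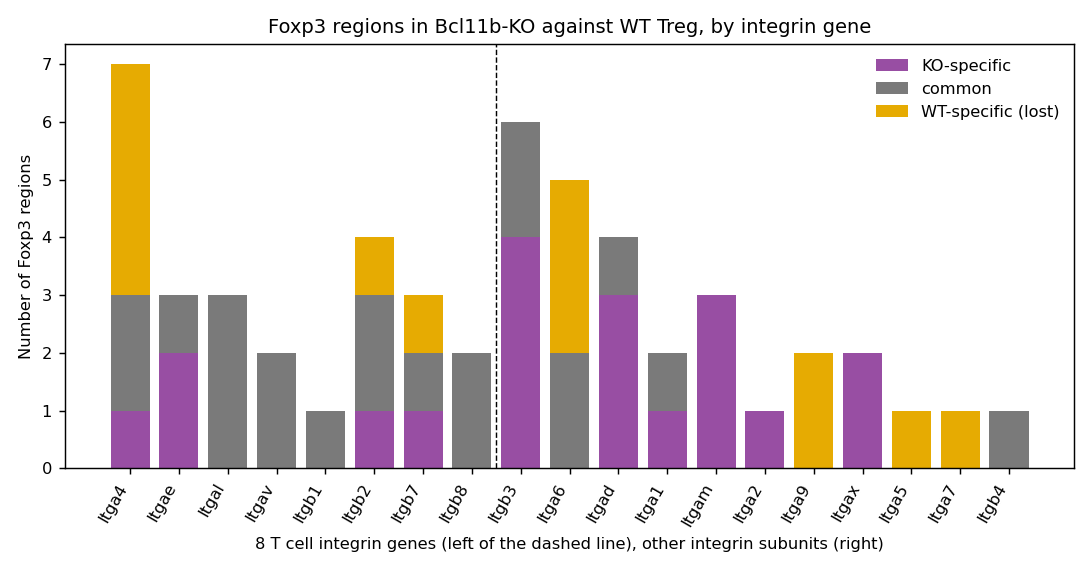
Number of Foxp3 regions (y axis) at each integrin gene in the comparison of Bcl11b-KO and WT Treg cells, for the 8 genes described here (left of the dashed line) and the other subunit genes with a Foxp3 region there (right). Purple is KO-specific, grey common and yellow WT-specific. Itga4 has 4 of the 6 WT-specific regions left of the line, and Itgam and Itgax have KO-specific regions only.

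The genes with counts over the 12 lists most like those of the 3 members with the most regions were found by the summed absolute difference of the 12 counts, over 10682 other genes. For Itga4 the nearest was Il21r, the gene of the IL-21 receptor, at a difference of 2, followed by Itm2b at 3 and Ago2 at 4, a difference that 9 genes share. Il21r had 1 KO-specific, 2 common and 3 WT-specific Foxp3 regions, and 1 common Bcl11b region in each of the Tn and KIKO comparisons. For Itgb2 the nearest were Arap1, Gimap1 and Lrrc8c at a difference of 2, which 8 genes share. For Itgav they were Kiz, Ppfia1 and Rpn1 at a difference of 1, each with 2 common regions in the Tn comparison and 2 WT-specific ones in the KIKO comparison.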

How the data were processed

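The build was mm10, and the submitters' processing notes name HOMER 4.10.1, HISAT2 2.1.0, SAMtools 1.3, Trim Galore 0.4.2, deepTools, FastQC and cutadapt 1.12. The role and settings of each tool, the threshold of the calls and any pooling are not given in the sources used. The authors deposited 12 lists of 3 columns (chromosome, start, end) without header. They hold positions only, in no unit of signal. Starts were read as counted from 0 and are printed counted from 1. The description of 1 of 3 Treg Bcl11b libraries names none of the lists.

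Identical rows were taken as 1 region, which dropped 127 repeats, and no 2 regions overlapped. Regions listed in 2 classes of a comparison, 25 in all and 0 at the 8 genes, were left out of it. Gene ends were taken from RefSeq (GRCm38.p6). When a centre lay in several genes, the shortest was taken. The rule placed 21850 regions at 11014 genes, and its script matched a plain search in 2000 of 2000 simulated cases. Exons, introns and genome sequence were not used here.

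The 8 genes are always named, as are the up to 5 genes with the most regions of each further list and the 3 genes most like each of the 3 members with the most regions. The members and lists were chosen with earlier results of these data known. Shares have Wilson 95% intervals, and for a count of 0 the limit is 3 counts of the total. These cover counting error only. Depth per sample is unknown. The labels do not say that replicates came from separate animals. Alternatives changed the distance limit, the gene assignment, the merging of regions, the distance from gene ends, the width, the handling of regions in 2 classes and the genes included. Scripts ran on Python 3.11.15 and used scipy 1.17.1, pandas 2.3.3, matplotlib 3.10.9 and numpy 2.4.6.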

Additional observations from a re-analysis of the deposited data

How the results depend on the processing

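Each of the 6 main values was recomputed under 16 settings, the leaving out of each gene included. Of 96 values, 89 stayed within the interval of the main share or within 1.5 times the main count. The share of Treg-specific regions was 0.0% in all 16, but settings that only drop or merge the 8 common regions could give no other value. The share of regions WT-specific against KIKO stayed between 33.3% and 62.5%. When only regions above the largest modal width (276 bp) were used, 9 of the 30 regions were left. This cut takes out all 5 KO-specific regions (276 bp) and 5 of the 6 WT-specific Foxp3 regions (220 bp). It also takes out the Bcl11b-only region (198 bp), so the resulting values were largely fixed by the cut. Of the 9 regions left, 0 were KO-specific. The share of WT Foxp3 regions that were WT-specific against Bcl11b-KO was 11.1% (1 of 9), and the share of Bcl11b regions common with Foxp3 was 100% (6 of 6). That share was also 100% (9 of 9) without Itgav. Without Itga4 the WT-specific share of Foxp3 regions was 14.3%, and without Itgae 3 KO-specific regions were left. No paired analysis was possible because each list stands for a group and carries no replicate. Leaving out a library was not possible for the same reason. The unknown depth limits every statement that a region is not listed.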

Other observations

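Of 20 genes of integrin activators and adaptors, 16 held 73 regions. Rap1b, a small GTPase that activates integrins, had 17, of which 3 were inside the gene. Cyth1, which binds the tail of the beta-2 chain, and Ptk2b, a focal adhesion kinase, had 8 each, Rap1a had 7 and Fyb, an adaptor also called ADAP, had 6. Of the Bcl11b regions at this list in WT Treg cells, 26 of 28 were common with Foxp3 (92.9%, 77.4 to 98.0), against 65.5% over all regions. KO-specific were 6 of 48 KO-side regions (12.5%, 5.86 to 24.7), against 17.9% over all regions, and WT-specific were 17 of 59 WT-side regions (28.8%, 18.8 to 41.4), against 31.3%.

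Ligands and latent TGF-beta partners held few regions, 9 at 4 of 11 genes. Tgfb1 had 5, of which 2 were common to Bcl11b and Foxp3, 1 was Foxp3-only and 1 was Tn-specific. In the Foxp3 comparison with Bcl11b-KO cells Tgfb1 had 3 common regions and 1 WT-specific one. Lrrc32, which encodes the Treg surface protein that holds latent TGF-beta, had 1 common and 1 WT-specific Foxp3 region and none in a Bcl11b list. Icam1 had 1 KO-specific region and Icam2 1 common one. No region was given to Vcam1, Madcam1, Cdh1, Fn1, Vtn, Spp1 or Ltbp1.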
